A study of Mus musculus with 12 samples.

Results

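A set of 9 genes that mark early steps of B and T cell development was followed across 12 spleen libraries. The genes were chosen by symbol: Rag1, Rag2, Dntt, Vpreb1, Vpreb2, Vpreb3, Igll1, Il7r and Cd93. Of these 9 genes, 8 had a row among the 32121 genes of the count table. Vpreb2 had none and was not analysed here. The libraries came from 6 mice, with 2 snap-frozen pieces of each spleen sequenced separately. In 3 mice, called SB animals, the labelled genotype combined VEC-Cre with the transposase of Sleeping Beauty (SB) and with onc2, its mutagenic transposon. The series title places the screen in the endothelium. The other 3 mice were controls labelled WT, which lack all 3 alleles together, so the alleles cannot be told apart from each other here. All 6 mice are labelled C57BL/6, with no age and no further treatment among the labels. The question put to the data was whether any SB spleen holds RNA of early lymphoid cells.

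B and T cells build their antigen receptors by cutting and joining gene segments, a reaction called V(D)J recombination. RAG1 and RAG2, the products of Rag1 and Rag2, form the enzyme that cuts, and terminal transferase, the product of Dntt, adds untemplated bases at the joints. Developing B cells first pair their heavy chain with a surrogate light chain, made from VpreB (Vpreb1, Vpreb2) and lambda 5 (Igll1). VpreB3 (Vpreb3) is a related protein that binds immunoglobulin chains inside the cell and is known from immature as well as precursor B cells. Interleukin 7, read through the receptor encoded by Il7r, keeps mouse lymphoid precursors alive, and mature T cells carry the same receptor. CD93 marks early and transitional B cells, and is also known from endothelial, stem and myeloid cells. In adult mice most B cell precursors are in the bone marrow and most T cell precursors are in the thymus.

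Several of these genes cannot be read cleanly from counts, and their sequences show why. Vpreb1 (ENSMUSG00000059305, GRCm38 chromosome 16, 16868403 to 16870843, minus strand) and Vpreb2 (ENSMUSG00000059280, chromosome 16, 17980428 to 17981273, plus strand) each code over 426 bases. The coding sequences differ at 9 positions, an identity of 97.9%. Bases 241 to 390 of each, from the annotated GRCm38 transcripts, are shown with the 6 differing bases of this stretch in capitals:
Vpreb1: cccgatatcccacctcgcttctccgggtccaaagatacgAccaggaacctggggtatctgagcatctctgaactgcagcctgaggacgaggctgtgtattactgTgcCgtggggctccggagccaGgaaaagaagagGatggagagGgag
Vpreb2: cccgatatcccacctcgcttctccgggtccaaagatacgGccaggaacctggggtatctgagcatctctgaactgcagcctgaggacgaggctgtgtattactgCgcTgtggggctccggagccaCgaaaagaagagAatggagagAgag
Of 1238 stretches of 50 bases in Vpreb1 transcripts, 292 also occur in another gene, and of 710 in Vpreb2 transcripts 233 do. A count given to Vpreb1 may therefore include reads of Vpreb2. The same share was 4.7% in Rag2, at most 0.84% in Rag1, Il7r and Cd93, and 0 in Dntt, Vpreb3 and Igll1. The libraries carry no strand, and exons of Rag1 and Rag2 overlap B230118H07Rik while an exon of Vpreb1 overlaps Top3b, so reads in the shared stretches cannot be assigned to a gene.

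The promoters of Rag1 and Vpreb3 are shown because these were the recombination gene and the surrogate light chain relative with the lowest levels in SB relative to control spleens. Each runs from 250 bases before to 50 bases after the start annotated by RefSeq on GRCm38.p6, and the capitals mark a motif match. For Rag1 (chr2:101649483-101649782, minus strand) they mark the E-box CAGGTG, the site of E proteins, and for Vpreb3 (chr10:75948050-75948349, plus strand) the octamer ATTTGCAT, the site of Oct factors:
Rag1: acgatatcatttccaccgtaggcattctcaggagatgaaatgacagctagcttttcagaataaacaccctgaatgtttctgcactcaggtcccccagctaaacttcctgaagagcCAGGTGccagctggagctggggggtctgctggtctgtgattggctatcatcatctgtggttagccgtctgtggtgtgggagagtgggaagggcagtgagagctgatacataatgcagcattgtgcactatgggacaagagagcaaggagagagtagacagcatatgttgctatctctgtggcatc
Vpreb3: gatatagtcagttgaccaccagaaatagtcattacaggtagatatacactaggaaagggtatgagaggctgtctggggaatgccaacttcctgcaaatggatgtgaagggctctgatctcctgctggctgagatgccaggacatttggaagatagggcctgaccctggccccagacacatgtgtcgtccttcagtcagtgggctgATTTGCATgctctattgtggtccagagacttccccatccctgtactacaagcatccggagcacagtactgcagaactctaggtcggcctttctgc
RefSeq promoters were found for 8 of the 9 genes, all but Cd93. On either strand, CAGGTG was in 4 of the 8 (Rag1, Vpreb1, Vpreb2 and Igll1) and in 20.2% of 32851 promoters of the same length. The octamer, which was searched after the Vpreb3 promoter had been read, was in 1 of the 8 and in 1.74% of all. GAGGAAGT, a PU.1 site, was in 0 of the 8 and in 3.2% of all, and an EBF motif in 0 of the 8 and in 0.9% of all. A match describes the letters in this window and no more.

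The libraries held 14320833 to 22031026 counts. Levels are CPM, counts scaled to a common library size with TMM factors, and a count of 3, taken as the detection floor, corresponds to 0.0727 to 0.0974 CPM in an animal. The labels left some differences between the groups unstated. Xist, the RNA that silences an X chromosome in females, measured 2265, 1001 and 1.67 CPM across SB animals 1 to 3 beside 2.11 ± 0.539 CPM for the controls (SD, n = 3). Y-linked Ddx3y measured 0.255, 0.182 and 95.9 CPM beside 68.0 ± 7.65 CPM. H2-Ea-ps, a class II histocompatibility gene that C57BL/6 mice are known not to transcribe, ranged from 0.0969 to 0.242 CPM in SB animals and averaged 91.6 ± 5.39 CPM in controls, which goes against the strain label of the controls. Strain background thus cannot be told apart from the SB genotype in what follows. SB animal 3 was like the controls in both sex-linked RNAs, while SB animals 1 and 2 were not. In SB animals 1 and 2 sex thus cannot be told apart from the SB genotype either. Values of SB animal 3 can be read only where single SB animals are shown, and the group means and group tests do not account for sex.

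Across genotypes, Vpreb3 and Il7r had lower RNA levels in SB spleens and Cd93 had a higher level. Of 8 genes with a row, 5 passed the filter on low counts. Rag1, Vpreb3 and Il7r fell, Cd93 rose, and Dntt did not pass the test (edgeR quasi-likelihood test on 3 SB against 3 control animals, Benjamini-Hochberg adjusted p under 0.05). Rag1 was in the test only through the control animals, so its call is not read as support. Rag2, Vpreb1 and Igll1 had too few counts. Of all 17328 genes tested, 9.1% were called lower and 7.99% higher in SB. The 6 SB libraries lay below all 6 control libraries for 3 of the 8 genes (16.6% of all genes tested) and above them for 1 (13% of all genes tested). Rag1 is among those 3 and is not read as support here either. The median log2 change of all genes tested was 0.11. The 2961 calls became 399, 253 and 376 without control animals 1, 2 and 3, and 6174 without SB animal 2. In whole tissue, fewer cells of a type and less RNA per cell cannot be told apart, here and for every level that follows.

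**Figure D1:**
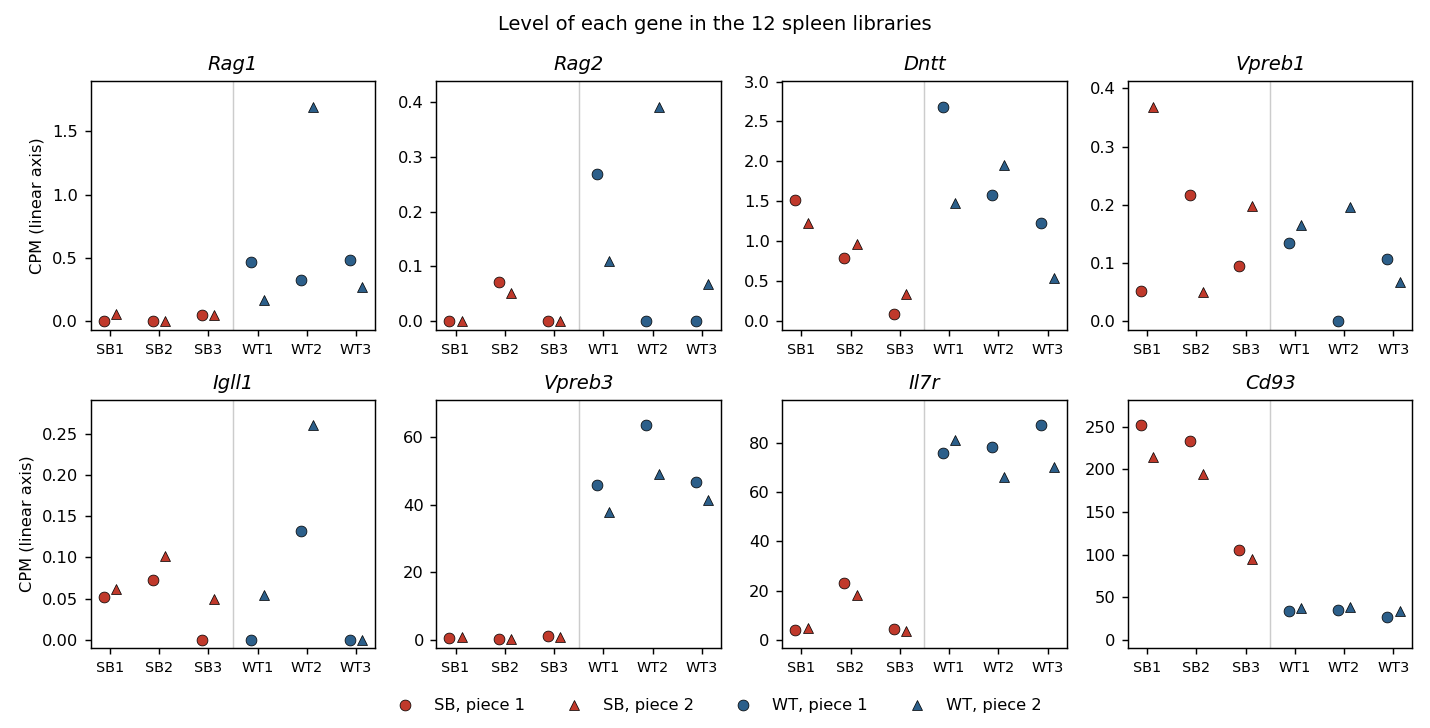
Level of 8 genes in CPM (linear axes, a scale for each gene) in the 2 pieces (circle, piece 1; triangle, piece 2) of the spleens of 3 SB animals (red) and 3 control animals (blue). Vpreb3 and Il7r are low in all 6 SB libraries, Cd93 is high in all 6, and Rag2, Vpreb1 and Igll1 rest on at most 6 counts per library.

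Rag1 (ENSMUSG00000061311, chromosome 2, 101638282 to 101649501, minus strand), the catalytic subunit of the recombinase, was close to absent from SB spleens. Pieces 1 and 2 of SB animal 1 had 0 and 1 counts, those of SB animal 2 had 0 and 0, and those of SB animal 3 had 1 and 1. Control animal 1 had 7 and 3 counts, control animal 2 had 5 and 26, and control animal 3 had 9 and 4. Every control library thus held more Rag1 counts than any SB library, and piece 2 of control animal 2 stood far above the other control pieces. The level was 0.0256 ± 0.0243 CPM in SB and 0.564 ± 0.385 in controls (SD, n = 3 each). On the log2 scale the difference was -4.21 (SE 0.89, edgeR adjusted p = 0.0291). Over all libraries there were 3 counts in SB and 54 in controls, so the control to SB ratio was 20.5 (95% counting interval, 6.67 to 103). Rag1 passed the low-count filter through the control animals alone, the group where it is high, so its call is not read as support. Without piece 2 of control animal 2 the counts were 3 and 28, the ratio was 12.7 (3.92 to 65.2), and the log2 change was -3.48 (edgeR adjusted p = 0.0260). With an animal left out the log2 change ran from -4.95 (without SB animal 3) to -3.53 (without control animal 2). The call was lost without SB animal 1, SB animal 3 or a single control (edgeR adjusted p of at most 0.109).

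Rag2 (ENSMUSG00000032864, chromosome 2, 101624718 to 101632529, plus strand), the partner subunit, lies next to Rag1 and was scarcer still. SB animals had 0, 2 and 0 counts and control animals 6, 6 and 1. The groups overlapped, and 4 of 6 SB libraries and 2 of 6 control libraries were at 0. The control to SB ratio of 13 to 2 counts was 7.42 (1.68 to 67.7), and Rag2 was not tested. In a fit with no filter its edgeR adjusted p was 0.284. For SB animals 1 and 3, at 0 counts, the exact upper 95% limits were 0.1045 and 0.0893 CPM.

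B230118H07Rik, the gene whose exons overlap both Rag1 and Rag2 on the minus strand, moved the other way. It measured 12.04, 11.7 and 11.7 CPM across SB animals 1 to 3, beside 4.63 ± 0.450 CPM for the controls (log2 1.35, SE 0.25, edgeR adjusted p = 0.0207), with no overlap between libraries. The Rag1 and Rag2 counts in SB spleens are thus low beside a higher level of the neighbour whose reads they could share.

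Dntt (ENSMUSG00000025014, chromosome 19, 41029275 to 41059525, plus strand), which encodes terminal transferase, was the recombination gene with the most counts in SB spleens. SB animals 1, 2 and 3 had 49, 30 and 9 counts, or 1.39, 0.908 and 0.218 CPM. Control animals had 67, 54 and 31 counts, or 2.01, 1.75 and 0.921 CPM. SB animal 1 lay within the range of the controls, SB animal 2 just under it, and SB animal 3 below it in each of its pieces (0.0945 and 0.345 CPM, against a lowest control piece of 0.545). The group levels of 0.838 ± 0.588 and 1.56 ± 0.571 CPM did not pass the test (log2 -0.90, SE 0.71, edgeR adjusted p = 0.412). In SB animal 1 Dntt was thus present at a level found in control spleens, while Rag1 and Rag2 together had 1 count there.

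The end joining factors, which seal the breaks that RAG makes and serve DNA repair in all cells, had summed levels that overlapped between the genotypes. Of 13 genes, 1 rose, 1 fell and 11 did not pass, with a median log2 change of -0.03 beside 0.11 for all genes. Polm, a polymerase that fills recombination ends, fell from 86.3 ± 6.46 to 33.3 ± 8.86 CPM (log2 -1.37, SE 0.24, edgeR adjusted p = 0.0167). Hmgb2, a DNA-bending protein that helps RAG bind and is also a gene of dividing cells, rose from 33.6 ± 8.24 to 122 ± 16.8 CPM (log2 1.87, SE 0.24, edgeR adjusted p = 0.00900). The DNA ligase Lig4 (12.5 ± 0.779 CPM in controls, 6.12 ± 2.39 in SB) and the kinase Prkdc (55.6 ± 1.34 and 54.2 ± 19.7) did not pass. Summed over the list, libraries held 447 to 704 CPM in SB and 452 to 512 in controls.

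Surrogate light chain RNA was at the edge of detection in both genotypes, with no SB animal standing out. Vpreb1 had 7, 4 and 6 counts in SB animals 1, 2 and 3 and 5, 3 and 3 in control animals. The groups overlapped, and the control to SB ratio of 11 to 17 counts was 0.739 (0.313 to 1.67). Top3b, the topoisomerase gene that overlaps Vpreb1, averaged 109 ± 38.2 CPM in SB and 94.7 ± 0.637 CPM in control spleens, a difference that did not pass (edgeR adjusted p = 0.654). Vpreb1, at 0.155 ± 0.0395 CPM in SB and 0.112 ± 0.0332 in controls, is thus scarce beside the gene whose reads its counts could hold. Igll1 (ENSMUSG00000075370, chromosome 16, 16860671 to 16863985, minus strand), which encodes lambda 5, had 2, 3 and 1 counts in SB animals and 1, 6 and 0 in controls. Its ratio was 1.33 with an interval of 0.383 to 4.80, so a difference of that size in either direction was not detectable at this depth. The highest upper 95% limit on the Igll1 level in an SB animal was 0.265 CPM, in SB animal 2, and on Vpreb1 0.409 CPM, in SB animal 1. In fits with no filter neither gene passed (edgeR adjusted p = 0.695 for Vpreb1 and 0.864 for Igll1).

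Vpreb3 (ENSMUSG00000000903, chromosome 10, 75943057 to 75949657, plus strand), in contrast, was abundant in control spleens and nearly lost from SB spleens. Its level was 0.680, 0.363 and 0.872 CPM in SB animals 1, 2 and 3, from 24, 12 and 36 counts. In control animals it was 41.3, 55.8 and 44.1 CPM, from 1373, 1719 and 1485 counts. The highest SB library (0.992 CPM) and the lowest control library (37.9 CPM) were 38.2-fold apart. The means of 0.638 ± 0.257 and 47.1 ± 7.70 CPM differed by -6.19 on the log2 scale (SE 0.42, edgeR adjusted p = 0.00235), a 72.9-fold fall. This call held with each of the 6 animals left out in turn (edgeR adjusted p up to 0.0243).

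The fall of Vpreb3 stood among those of general B cell genes. Ebf1 and Pax5, the transcription factors that set up and maintain B cell identity, fell from 168 ± 16.5 to 2.04 ± 0.297 CPM (log2 -6.36, edgeR adjusted p = 0.000332) and from 843 ± 48.5 to 7.86 ± 1.68 CPM (log2 -6.74). In the pro-B and pre-B list 9 of 18 genes fell, 0 rose and 9 did not pass, with a median log2 change of -2.32. Cd79a (log2 -6.61), a signalling chain of the B cell receptor, fell too, and mature B cells also carry it. The members that did not pass included Myb (207 ± 171 CPM in SB, 50.9 ± 3.77 in controls), Sox4 (20.4 ± 28.9 and 4.13 ± 0.578) and Erg (18.01 ± 9.42 and 6.42 ± 0.580), regulators that stem and myeloid progenitors also use. Sox4 was uneven, at 53.7, 2.03 and 5.30 CPM across SB animals 1 to 3 (log2 3.70 against the controls in SB animal 1). Arpp21, a gene known from pre-B cells and thymocytes, missed the threshold across genotypes (edgeR adjusted p = 0.202). It measured 0.482, 1.39 and 8.55 CPM across SB animals 1 to 3, beside a control level of 0.694 ± 0.404 CPM. Both pieces of SB animal 3 (9.02 and 7.99 CPM) lay above the highest control library (1.21 CPM), with a log2 change of 3.615 for that animal. Enpep, the BP-1 antigen of pre-B cells, measured 0.567, 0.908 and 0.218 CPM beside a control level of 1.62 ± 0.532 CPM. It missed the threshold too (edgeR adjusted p = 0.134).

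Genes of later B cell stages were among those that fell. In the mature B list 9 of 10 genes fell, 0 rose and Ighm did not pass, with a median log2 change of -6.66. Fcer2a and Cr2, receptors of follicular and marginal zone B cells, fell most (log2 -7.79 and -7.73), followed by Ms4a1, which encodes CD20 (log2 -7.08), and Fcmr, the IgM Fc receptor (log2 -7.04). In the immature and transitional B list, which shares all its genes but Spib with the other B cell lists, 4 of 8 fell and 4 did not pass. Its members Spib, Ms4a1, Cd79a and Cd79b fell, while Sox4, Myb and Cd24a had positive log2 changes (2.30, 2.02 and 0.98) that did not pass. Ighm, the heavy chain of IgM, measured 510, 5066 and 526 CPM across SB animals 1 to 3, beside a control level of 9242 ± 1088 CPM. SB animal 2 was thus the highest of the 3 SB animals for Ighm and the lowest for Vpreb3.

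**Figure D2:**
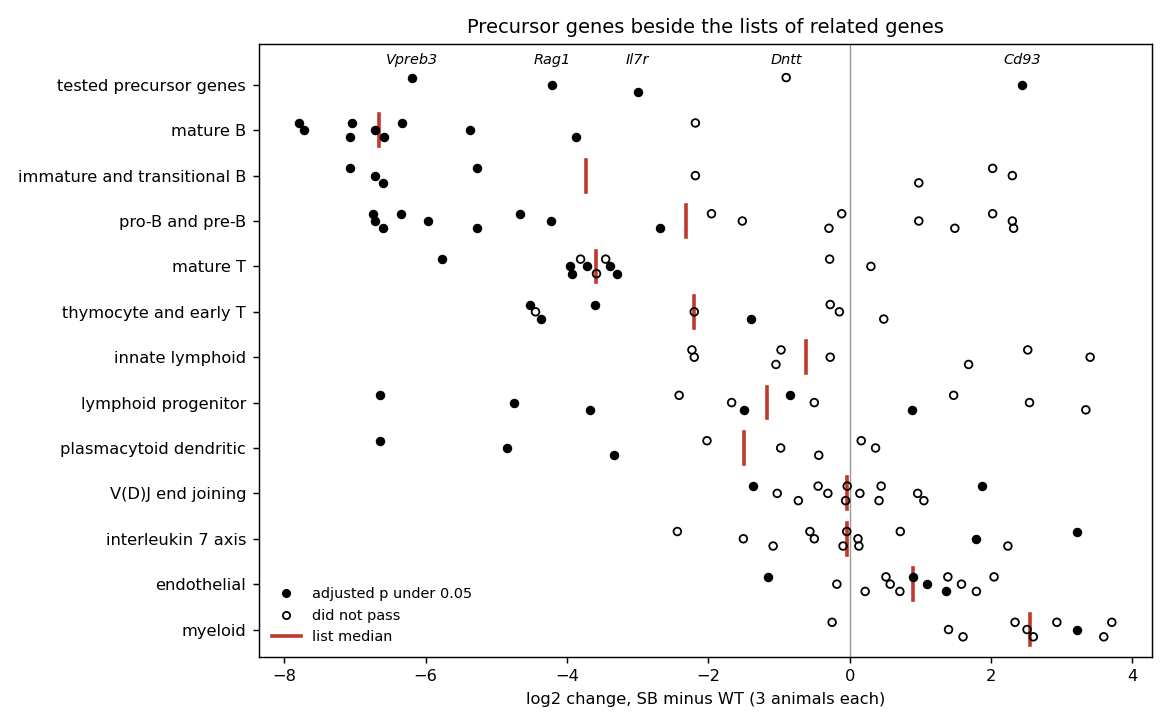
Log2 change (SB minus control, 3 animals each) of the 5 tested precursor genes, top row, and of the genes of 12 lists; each point is a gene, filled where the edgeR adjusted p was under 0.05 and open where not, and the red bar is the list median. List medians run from -6.66 (mature B) to 2.555 (myeloid). Vpreb3 is at -6.19, Il7r at -3.00 and Cd93 at 2.44, and a link of these genes to any list was not tested.

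Il7r (ENSMUSG00000003882, chromosome 15, 9505788 to 9530176, minus strand), the interleukin 7 receptor chain, fell in all SB spleens but unevenly. Its level was 4.28, 20.3 and 3.97 CPM in SB animals 1, 2 and 3, from 151, 672 and 164 counts. Control animals had 78.4, 71.6 and 79.1 CPM. SB animal 2 held several times the level of the other SB animals in both of its pieces (23.0 and 18.03 CPM), and still lay 2.89-fold below the lowest control library. The means of 9.53 ± 9.36 and 76.3 ± 4.11 CPM differed by -3.00 on the log2 scale (SE 0.72, edgeR adjusted p = 0.0402). With piece 1 alone the adjusted p was 0.0506. Without SB animal 2 the log2 change was -4.21 (edgeR adjusted p = 0.000418), and without any other animal the call was lost (edgeR adjusted p up to 0.134).

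Genes of mature T cells, which also carry the receptor, were uneven between SB animals in some cases and even in others. Cd3g, a chain of the T cell receptor complex, measured 1.39, 19.9 and 1.21 CPM across SB animals 1 to 3, beside a control level of 89.6 ± 4.38 CPM, and missed the threshold (edgeR adjusted p = 0.0920). Cd8b1, a coreceptor chain of cytotoxic T cells, fell from 75.7 ± 4.46 CPM to 0.822, 9.20 and 1.02 (log2 -4.37, edgeR adjusted p = 0.0419, and -6.36 without SB animal 2). In the mature T list 6 of 11 genes fell, 0 rose and 5 did not pass, with medians of -5.05, -2.43 and -5.90 in SB animals 1, 2 and 3. Ccr7, a homing receptor (log2 -5.77; 3.09, 3.78 and 2.95 CPM across SB animals 1 to 3), and Lck, the kinase of the T cell receptor (log2 -3.29), fell. Summed over the list, SB libraries held 52.9 to 554 CPM and control libraries 1026 to 1321. Single genes made up much of these sums. Cd4, a coreceptor that macrophages can also carry, measured 6.998, 281 and 9.98 CPM across SB animals 1 to 3, beside a control level of 121 ± 8.72 CPM, and Lat, an adaptor that platelets also use, 18.4, 39.5 and 465 CPM beside 142 ± 18.6 CPM. Neither passed across genotypes (edgeR adjusted p = 0.901 and 0.874).

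Some genes of the thymocyte and early T list were lower too. Among them Cd8b1 is also a gene of mature T cells, and whether the others fell with mature or with early T cells was not tested. Ptcra, the pre-T cell receptor chain made by thymocytes, had 0 counts in all 6 SB libraries and averaged 0.104 ± 0.0528 CPM in controls, so it was not tested. In the thymocyte and early T list 4 of 9 tested genes fell, 0 rose and 5 did not pass, with a median log2 change of -2.20. Of those that did not pass, Gata3 measured 0.595, 2.87 and 21.7 CPM across SB animals 1 to 3, beside 10.2 ± 1.17 CPM in controls. Tcf12 measured 142, 81.8 and 177 CPM beside 95.8 ± 4.28 CPM, and Bcl11b 0.65, 6.96 and 0.39 CPM beside 58.0 ± 4.71 CPM. Tcf7, a T lineage transcription factor, fell from 208 ± 17.8 to 9.05 ± 5.55 CPM (log2 -4.52, and -5.14 without SB animal 2). Themis, a signalling protein of thymocytes, fell as well (log2 -3.61, and -4.76 without SB animal 2), as did Hes1, a Notch target, which went from 46.8 ± 3.07 to 17.7 ± 1.98 CPM (log2 -1.40, edgeR adjusted p = 0.00852). In the innate lymphoid list, whose cells also carry the receptor, 0 of 8 genes passed with edgeR. Its summed level ranged from 69.9 to 362 CPM in SB libraries and from 76.4 to 106 in controls.

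Around the receptor, no other gene of the interleukin 7 axis passed as lower. Of 13 genes, 2 rose, 0 fell and 11 did not pass, with a median log2 change of -0.04. Cish, a feedback inhibitor of cytokine receptors that act through STAT5, rose from 9.36 ± 0.450 to 87.1 ± 68.0 CPM (log2 3.22, SE 0.57, edgeR adjusted p = 0.0187), and its log2 change was 2.36 without SB animal 3. Pim1, a survival kinase induced by many cytokines, rose from 83.1 ± 12.9 to 288 ± 71.8 CPM (log2 1.79, SE 0.24, edgeR adjusted p = 0.00990). Both respond to other cytokine receptors as well as to that of interleukin 7. The cytokine gene Il7 itself measured 1.16, 4.99 and 0.605 CPM across SB animals 1 to 3, below a control level of 12.2 ± 1.35 CPM with no overlap, and missed the threshold (edgeR adjusted p = 0.0931). The common gamma chain Il2rg, at 69.1 ± 38.7 against 196 ± 9.54 CPM, did not pass either (edgeR adjusted p = 0.0873).

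Cd93 (ENSMUSG00000027435, chromosome 2, 148436640 to 148443563, minus strand) was the exception in direction. Its level was 236, 213 and 101 CPM in SB animals 1, 2 and 3 and 35.5, 36.7 and 29.4 CPM in control animals. Every SB library exceeded every control library, and the nearest pair (94.9 and 38.7 CPM) was 2.45-fold apart. The means of 183 ± 72.3 and 33.8 ± 3.92 CPM differed by 2.44 on the log2 scale (SE 0.35, edgeR adjusted p = 0.01125), a 5.42-fold rise. The call was lost when a single control was left out (edgeR adjusted p of 0.0654 to 0.0725), with log2 changes of 2.33 to 2.49.

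Markers of other cells that carry CD93 are given beside it, and their part in the Cd93 result was not tested. In the endothelial list 3 of 13 genes rose, 1 fell and 9 did not pass. Stab2, a scavenger receptor of sinusoids, rose by a log2 change of 1.09 and Eng, endoglin, by 1.36, while Pecam1 fell by 1.16 on the log2 scale. Summed over the list, libraries held 762 to 1256 CPM in SB and 639 to 863 in controls. By animal these sums were 1088, 772 and 1250 CPM in SB animals 1, 2 and 3. Single genes of the list were ordered differently, and neither of the next 2 passed across genotypes. Tie1 measured 177.5, 46.7 and 85.4 CPM across SB animals 1 to 3 (34.5 ± 4.23 in controls). Kdr measured 33.7, 26.1 and 125.9 CPM (41.6 ± 2.49). In the myeloid list 1 of 10 genes rose, Mpo, the peroxidase of granulocyte precursors (14.04 ± 10.8 to 131 ± 55.8 CPM, log2 3.22, and 4.01 without control animal 1). That is 1 in 10 genes, beside 7.99% of all genes called higher. The sums were 863, 4256 and 977 CPM against 484 to 568 in control animals. In SB animal 1, which had the highest Cd93, Csf3r alone, the receptor of a granulocyte growth factor, gave 668 CPM. The list median there was -0.92 on the log2 scale against the controls. No marker of either list was at 0 in all SB or all control libraries.

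The lymphoid progenitor list holds genes of lymphoid cells and genes shared with other blood stem cells. Of 12 genes 1 rose, 5 fell and 6 did not pass, with a median log2 change of -1.17. Ly6d, which marks progenitors committed to the B lineage and also B cells, fell from 578 ± 60.5 to 5.77 ± 3.65 CPM (log2 -6.65, and -7.30 without SB animal 2). Satb1, a chromatin organiser of lymphoid cells, fell by 4.75 on the log2 scale and Ikzf1, the regulator Ikaros, by 0.85. Mecom, a regulator of stem cells, fell from 5.33 ± 0.820 to 1.88 ± 0.495 CPM (log2 -1.50). Lmo2, a regulator of stem and erythroid cells, rose by 0.88. Flt3, the receptor of lymphoid-primed progenitors, measured 28.3, 11.3 and 4.70 CPM across SB animals 1 to 3, below a control level of 47.1 ± 3.84 CPM, and missed the threshold (edgeR adjusted p = 0.122). Genes known from stem and progenitor cells varied between SB animals and did not pass across genotypes. Across SB animals 1 to 3, Cd34 measured 283, 16.9 and 36.2 CPM (19.2 ± 2.60 in controls), Kit 169, 37.6 and 139 CPM (41.7 ± 4.59) and Meis1 348, 13.4 and 3.32 CPM (12.01 ± 1.18).

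Plasmacytoid dendritic cells can also hold Dntt and Rag RNA, so their markers are given beside those genes. In that list 3 of 8 genes fell, Ly6d, the homing receptor Ccr9 (log2 -3.34) and Klk1, 0 rose and 5 did not pass. Klk1, at 0, 0 and 0.0969 CPM in SB animals, was in the test only through the controls. Siglech, their surface lectin, measured 0.368, 29.2 and 1.87 CPM across SB animals 1 to 3, beside a control level of 20.6 ± 5.64 CPM. Their part in the Dntt and Rag1 levels was not tested.

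Animal by animal, Cd93 was the only one of the 5 tested genes that passed as higher than the controls in any SB spleen. Each SB animal was set against the 3 controls in a fit that assumes a lone animal to vary as the controls do. In that fit 34.3%, 29.4% and 33.1% of all genes were called lower in SB animals 1, 2 and 3, and 32.3%, 29.6% and 31.6% higher, and the calls that follow are read beside these shares. Vpreb3 was lower in each (log2 -6.10, -7.00 and -5.75, with SE 0.31, 0.34 and 0.29, edgeR adjusted p up to 2.23e-05). Il7r was lower in each (log2 -4.15, -1.91 and -4.26, with SE 0.14, 0.11 and 0.14, edgeR adjusted p up to 2.40e-05). Rag1 rests on 1, 0 and 2 counts in SB animals 1, 2 and 3, and was in the test only through the controls, so its calls there are not read as support (log2 -4.13 and -3.43, with SE 1.37 and 1.17, edgeR adjusted p = 0.0359 and 0.0415 in SB animals 1 and 3). The ratio of controls to SB animal 1 was 18.9 (counting interval, 3.25 to 761), and of controls to SB animal 3 it was 10.9 (2.88 to 92.5). In SB animal 2, at 0 counts, no ratio could be formed for Rag1, and the lower limit of its 95% counting interval was 5.47. Dntt was lower in SB animal 3 (log2 -2.82, SE 0.64, edgeR adjusted p = 0.00764), and did not pass in SB animal 1 (log2 -0.17, SE 0.48) or SB animal 2 (log2 -0.78, SE 0.51). Cd93 was higher in each (log2 2.81, 2.66 and 1.58, with an SE of 0.12 each, edgeR adjusted p up to 0.000134).

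**Figure D3:**
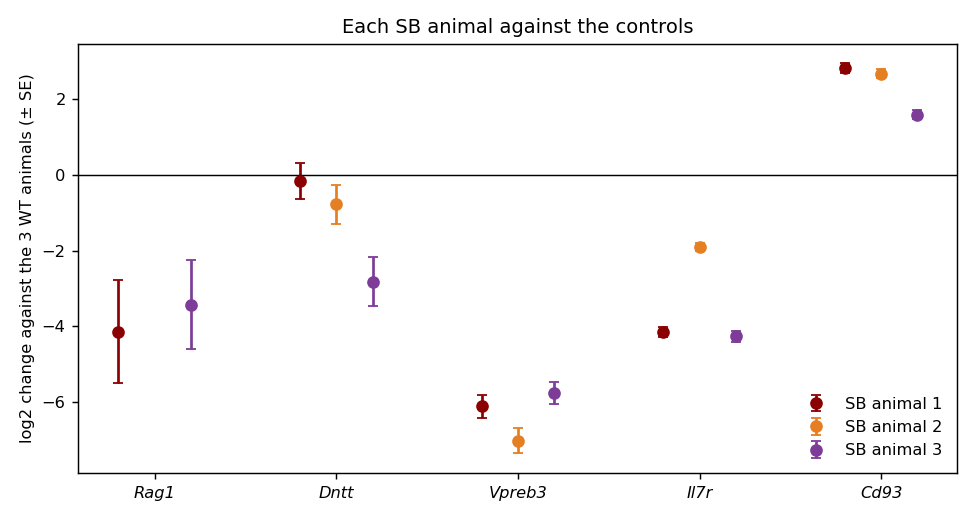
Log2 change of each SB animal against the 3 control animals for the 5 tested genes; points are estimates and bars are ± 1 SE. Rag1 in SB animal 2 had 0 counts and is not drawn; Dntt lies near 0 in SB animal 1 (-0.17), and Il7r is nearest to the controls in SB animal 2 (-1.91).

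The SB spleens also differed among themselves. An F test over the libraries, with the spread between pieces of a spleen as error, called Dntt (edgeR adjusted p = 0.00699), Il7r (adjusted p = 3.19e-07) and Cd93 (adjusted p = 2.12e-05), and did not call Vpreb3 (adjusted p = 0.0634). Of 15523 genes in that test 72.8% were called, and its p-values compare these 3 spleens only. The order of the animals was not the same for these genes. Dntt was highest in SB animal 1, Il7r in SB animal 2, and Cd93 in SB animals 1 and 2.

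Piece 2 was set against piece 1 within each spleen, with the animal as a block, to ask whether precursor RNA is spread evenly. Of 16787 genes tested, 1.91% were called over all animals, 0% within SB animals, 8.32% within controls and 1.23% for the difference between genotypes. Within SB animals 0 genes were thus called with edgeR, and 3367 had an unadjusted p under 0.05. None of Dntt, Vpreb3, Il7r and Cd93 passed in any of these contrasts, and Rag1, Rag2, Vpreb1 and Igll1 were not tested. For Cd93 piece 2 held 0.854, 0.834 and 0.897 times the level of piece 1 in SB animals 1, 2 and 3, and 1.10, 1.10 and 1.25 times in control animals. All 3 SB animals were thus lower in piece 2 and all 3 controls higher, and the difference between genotypes was -0.40 on the log2 scale (SE 0.10, edgeR adjusted p = 0.0771). Over all animals the estimates were -0.22 for Vpreb3 (SE 0.12), -0.15 for Il7r (SE 0.09) and -0.19 for Dntt (SE 0.31). These differences between pieces are small beside those between genotypes for Vpreb3, Il7r and Cd93. Labels give sections 1 and 2 for SB animals and A and B for controls, with no position in the spleen.

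**Figure D4:**
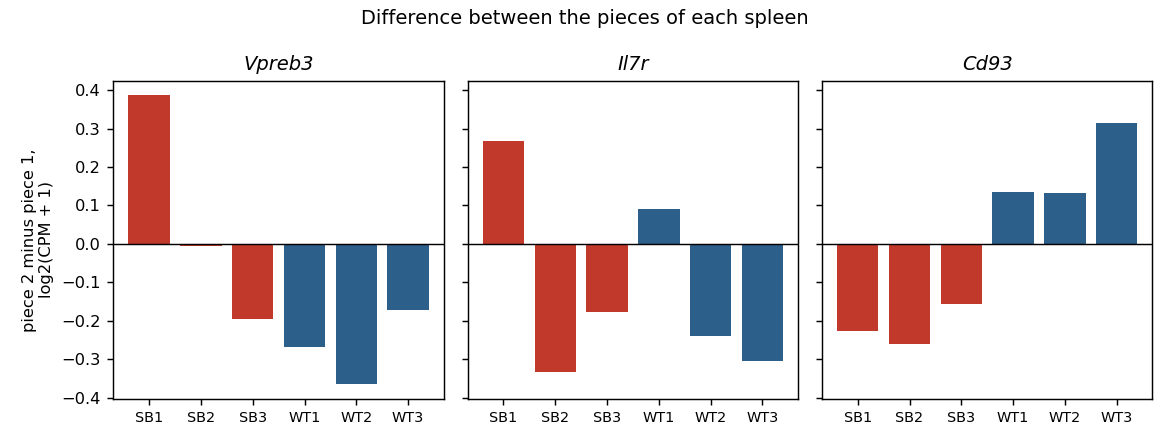
Difference between piece 2 and piece 1 of each spleen in log2(CPM + 1) for Vpreb3, Il7r and Cd93, a bar for each of 3 SB animals (red) and 3 control animals (blue), on a common axis. For Cd93 the bars are negative in all 3 SB animals (-0.226, -0.260 and -0.155) and positive in all 3 controls (0.136, 0.132 and 0.314).

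Per kilobase of exon, the levels of these genes were ordered differently in the 2 genotypes. In controls Vpreb3 was highest (48.0 to 65.0 CPM per kb over animals), then Il7r (15.4 to 17.0), Cd93 (4.40 to 5.49) and Dntt (0.402 to 0.879), each apart from its neighbours. Below them Vpreb1 (0.0743 to 0.125), Rag1 (0.0455 to 0.152), Rag2 (0.00868 to 0.0569) and Igll1 (0 to 0.0900) overlapped. In SB spleens Cd93 was highest (15.1 to 35.3 CPM per kb) and apart from the rest. It was followed by Il7r (0.852 to 4.36), Vpreb3 (0.423 to 1.02), Dntt (0.0951 to 0.606) and Vpreb1 (0.101 to 0.165), each overlapping the next.

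For each gene with enough counts, the genes of most similar profile were found by Pearson's r of log2(CPM + 1) over the 12 libraries, among 13045 genes. These r values describe 12 libraries that fall into 2 genotypes, and libraries of a spleen are not independent. Vpreb3 was closest to Klhl14 and Cacna1i (r = 0.998 each) and to the B cell factor Ebf1 (r = 0.998). Il7r was closest to Gpr18, Cmah and Cd3g (r = 0.997 to 0.998), of which Cd3g encodes a T cell receptor chain. Cd93 was closest to Ralb (r = 0.995), Fads1 (r = 0.994) and Dstn (r = 0.992). Dntt had no close match, with Snapc1 (r = 0.903), Pin4 (r = 0.872) and Fopnl (r = 0.840) nearest.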

How the data were processed

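Spleen poly-A RNA was sequenced as unstranded libraries, 2 pieces for each of 6 animals, per the labels' protocols. Deposited were counts per Ensembl gene, as whole numbers that sum to a different total in each library. STAR 2.5.3a, limma, mm10 and GRCm38 are named in the submitters' processing notes without roles; how reads were counted, and on which annotation release, is not given in the sources used. Symbols and coordinates came from GENCODE mouse release 21 (GRCm38), which matched 32026 of 32121 genes. The table had 0 columns of no sample and 0 rows without a gene name.

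Groups came from the genotype labels. Pieces of a spleen were summed, and the animal was the replicate. Pairing of pieces rests on the animal named in the labels, so piece contrasts have the animal as a block. SB and control animals are not linked by any label. Nothing in the labels says that animals of a group are unrelated, so p-values measure the spread between these animals.

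Tests used edgeR 4.0.16 in R 4.3.3 (TMM scaling, filterByExpr, robust quasi-likelihood fit, two-sided, Benjamini-Hochberg adjustment over all genes tested, threshold 0.05), checked on simulated counts. SE is the log2 change divided by the square root of F. CPM is on TMM-scaled sizes, and differences between pieces per animal are on log2(CPM + 1), which understates the change of low genes. Intervals on ratios of counts are exact conditional binomial intervals and limits on counts exact Poisson limits, both at 95%. They cover counting error only. For the ratios the counts of the animals of a group were pooled, so the spread between animals is left out. PCR copies were not marked, so the intervals may be too narrow even for counting error. With 3 against 3 animals an exact permutation test cannot go below 0.1, so none is given. DESeq2 1.42.0 was an alternative, beside other scaling, no filter, single pieces, and animals left out.

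The genes, the lists and the tests were chosen with earlier results of these data known. Named were the 9 genes, up to 4 called genes per direction and list with the smallest adjusted p, uncalled list genes as examples, and the 3 nearest profiles per gene with at least 10 counts in 3 libraries, among tested genes averaging at least 1 CPM. Antigen receptor segments and unnamed predicted genes were left out of the last. B230118H07Rik and Top3b are named for their overlap, and Xist, Ddx3y and H2-Ea-ps as checks of the labels. Some list genes that this rule names are not reported here.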

Additional observations from a re-analysis of the deposited data

Results flagged for a closer look

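Rag1 in piece 2 of control animal 2 stood at 1.69 CPM, from 26 counts, far from the other 5 control libraries (0.165 to 0.482 CPM). The gap to the nearest library took 0.793 of the range of the 6 control libraries, above the limit of Dixon's test for 6 values at 95%. Chance alone singles out about 1 in 20 such groups. Both genotypes were searched for each of 8 genes, and this was the only value so flagged. The limit assumes independent values, while these are low counts from pairs of pieces of 3 spleens. Rag2 had 6 counts and Igll1 4 counts in the same piece, the highest of the 12 libraries for each, while Dntt (1.96 CPM) and Vpreb3 (49.1 CPM) were within the range of the other control libraries.

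The difference between pieces for Cd93 had opposite signs in the genotypes, lower in piece 2 in 3 of 3 SB animals and higher in 3 of 3 controls. The difference between genotypes was -0.402 on the log2 scale and did not pass the adjustment over all genes (edgeR unadjusted p = 0.00199, adjusted p = 0.0771).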

How the results depend on the processing

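Vpreb3 was called lower in SB in 8 of 8 other settings and with each animal left out (log2 -6.48 to -5.91). With an animal left out, Rag1 ranged from -4.95 to -3.53 (called in 1 of 6 fits), Il7r from -4.21 to -2.63 (1 of 6), Cd93 from 2.22 to 2.73 (3 of 6) and Dntt from -1.48 to -0.44 (0 of 6). Il7r with piece 1 alone was -2.96 and not called. The count of called genes, 2961, became 5523 with DESeq2 and 253 to 6174 with an animal left out (399, 253 and 376 without control animals 1, 2 and 3, and 6174 without SB animal 2). Leaving out 1 control at a time, Dntt in SB animal 1 ranged from -0.45 to 0.049 and Rag1 in SB animal 3 from -3.75 to -2.75 (adjusted p = 0.0512 without control animal 2). Scaling by library size alone kept the direction of each tested gene and moved the median of all genes in SB animal 2 from -0.02 to -0.21, so that 4091 genes were called higher and 6496 lower there (5133 and 5097 before). With this scaling and with no filter the difference of Vpreb3 among SB animals passed (adjusted p = 0.0226 and 0.0480). Of 34 list genes called and named, 16 were called with each animal left out. The others, among them Cd79b, Cd8b1, Themis, Hes1, Cish, Pim1, Polm, Hmgb2, Stab2, Eng, Pecam1, Mpo, Lmo2, Ikzf1 and Klk1, were called in 1 to 5 of 6 such fits.

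Without the replicate block, 0 genes were called between pieces over all animals, within controls or for the difference between genotypes. With no filter on low counts the piece calls were 1861 over all animals, 1357 within SB, 2194 within controls and 1218 for the difference, and RLE scaling gave 533 over all animals. With an animal left out the piece calls ran from 0 to 532 over all animals, 0 to 812 within SB, 0 to 3345 within controls and 0 to 540 for the difference. The small piece estimates changed sign in places. With an animal left out, Cd93 over all animals ranged from -0.083 to 0.032, Dntt from -0.337 to 0.001 over all and -0.044 to 0.706 within SB, Vpreb3 from -0.302 to 0.633 within SB and -0.022 to 0.912 for the difference, and Il7r from -0.305 to 0.057 within SB and -0.149 to 0.213 for the difference. The Il7r difference was also -0.064 without the block and -0.007 with no filter. The cause of these changes was not tested.

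Depth limits Rag1, Rag2, Vpreb1 and Igll1, which had 0 to 7 counts in an SB animal and wide counting intervals. A lone library assumes the spread of the others, and pieces of a spleen share their animal. The removal of piece 2 of control animal 2 was chosen after seeing the data.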
